A study of Aspergillus nidulans with 48 samples.

Results

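RNA-seq libraries of menadione-treated *Aspergillus nidulans* mycelia are described here, 6 in number, 3 of the double mutant Δ*atfA*Δ*atfB* and 3 of the single mutant Δ*atfA*. They were chosen by their titles from 48 libraries in all, and the comparison is designed to read the loss of *atfB* in mycelia that already lack *atfA*. The whole series holds mycelia and conidia of these mutants, of Δ*atfB* and of the control strain THS30.3, each untreated or treated with menadione sodium bisulfite (MSB), an agent that produces superoxide inside cells. Both groups grew on plates of Barratt's agar at 37 °C with MSB, at a dose the labels give as 0.04 "Mm" and which is taken here as mM. By the study's methods mycelia were collected before conidiophores formed, from surface cultures whose age is given as a range and not for each sample. An age difference between the groups was therefore not tested. Where the titles say double mutant, the genotype field repeats *atfB* and omits *atfA*, and here the titles were followed. The series describes its replicates as biological. Unless a smaller fit is named, the p-values below rest on the spread between replicates over all 24 mycelial libraries, and not on the 6 alone. The mycelial libraries belong to 1 batch by the labels.

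AtfA and AtfB are basic leucine zipper (bZIP) transcription factors of the ATF/CREB family, which bind short DNA elements as dimers. In aspergilli AtfA acts downstream of the HogA (SakA) stress kinase and is known for its part in spore stress tolerance, dormancy and the oxidative stress response. AtfB is a related factor that has been linked, in other aspergilli, to stress responses and to the control of secondary metabolite gene clusters. Fungal secondary metabolites such as penicillin are made by enzymes whose genes lie side by side and are often expressed together.

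The 6 libraries held 12974631 to 25868427 counts of reads summed over 10988 genes, and log2 expression correlated at 0.9871 to 0.9911 between replicates of a group. Levels are given as RPKM, reads scaled to the gene's length and to the library's total. Differences are log2 fold changes of Δ*atfA*Δ*atfB* over Δ*atfA* with their standard errors, from edgeR's quasi-likelihood test with Benjamini-Hochberg adjustment over 9199 genes tested. A gene was called raised or lowered when its log2 fold change was above 1 or below −1 and its adjusted p was below 0.05. Because RNA came from whole cultures, fewer cells of a type and less RNA per cell cannot be told apart.

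The deleted genes were read first. *atfA* (AN2911) kept 4.13, 4.54 and 3.50 RPKM in the 3 Δ*atfA*Δ*atfB* libraries, against 13.7, 15 and 13.4 RPKM in the 3 Δ*atfA* libraries. MSB-treated control mycelia held 59.2, 75.8 and 62 RPKM, so reads remained on the deleted locus in both mutants, and more of them in Δ*atfA* (log2 fold change −1.80 ± 0.23, adjusted p = 3.1e-05). *atfB* (AN8643) was barely expressed in either group. It had 1.17, 1.32 and 1.17 RPKM in Δ*atfA*Δ*atfB* (47, 46 and 54 reads), against 0.950, 0.542 and 0.852 RPKM in Δ*atfA* (22, 18 and 32 reads). All 3 libraries labelled as the double mutant thus lay above all 3 of Δ*atfA*, opposite to the direction the label implies. The difference was not called (log2 fold change 0.64 ± 0.27, adjusted p = 0.16). Over all genes tested, 11.8% had the groups apart with the double mutant higher. The Δ*atfA* level on MSB was close to that of untreated Δ*atfA*Δ*atfB* mycelia given below. Why *atfB* was not lower in the double mutant on MSB was not tested. In the other libraries with the same labels *atfB* was lower in the double mutant. Untreated Δ*atfA*Δ*atfB* mycelia held 0.523, 0.509 and 0.919 RPKM of *atfB*, against 1.51, 1.61 and 1.61 RPKM in untreated Δ*atfA* mycelia. In untreated conidia, Δ*atfA*Δ*atfB* held 1.94, 2.67 and 2.13 RPKM, against 56.3, 46.8 and 41.4 RPKM in Δ*atfA*. The difference between the MSB-treated and the untreated fold change of *atfB* was itself called (1.90, adjusted p = 0.0018). Reads on the *atfA* locus separated the strains the same way with and without MSB, since untreated mycelia held 5.91, 5.34 and 5.09 RPKM in Δ*atfA*Δ*atfB*, against 11, 11.9 and 11.1 RPKM in Δ*atfA*. Below, Δ*atfA*Δ*atfB* on MSB means the libraries labelled so, and each direction rests on that label.

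Around the deleted genes, the 5 genes on each side of *atfA* and the 5 on each side of *atfB* in the RefSeq gene order held no called gene, and 2 of them (AN2915 and AN8642) were too low to be tested. The 8 genes listed as strain markers held none either. With 2.66% called over all genes tested, no call in sets this small lies near the background. The largest differences among the strain markers were in *argB* (AN4409), an arginine biosynthesis gene, and *wA* (AN8209), the spore pigment polyketide synthase. They were −0.44 ± 0.09 in *argB* and 0.49 ± 0.12 in *wA* on the log2 scale.

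More genes were raised than lowered in the MSB-treated libraries labelled Δ*atfA*Δ*atfB*, set against those labelled Δ*atfA*. Of 9199 genes, 199 were raised (2.16%) and 46 were lowered (0.5%), or 245 in either direction (2.66%). The raised genes were mostly weak in Δ*atfA*. Their median level was 3.63 RPKM in Δ*atfA*Δ*atfB*, against 0.882 RPKM in Δ*atfA*, and their median log2 fold change was 1.77. The lowered genes had a median of 3.65 RPKM in Δ*atfA*Δ*atfB*, against 10.2 RPKM in Δ*atfA*, and a median log2 fold change of −1.41. Raised genes also reached further, with 34 of them beyond a log2 fold change of 3. Over all genes tested the median log2 fold change was 0.0012.

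The 3 libraries of a group stayed apart from the other group's 3 in 194 of the raised and 43 of the lowered genes, a separation that 2027 of the 9199 genes showed (22%). Among the double-mutant libraries, replicate 2 was the highest in 160 of the 199 raised genes and replicate 1 the lowest in 141. Without replicate 2 of Δ*atfA*Δ*atfB* the test called 123 genes raised and 37 lowered, and 122 and 33 of these were among the genes called with all libraries. Without replicate 1 of Δ*atfA*Δ*atfB* it called 242 raised and 90 lowered. A fit of the 6 libraries by themselves called 104 raised and 26 lowered. Under every one of the 12 alternatives tried, 92 genes were called raised and 21 lowered.

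**Figure D1:**
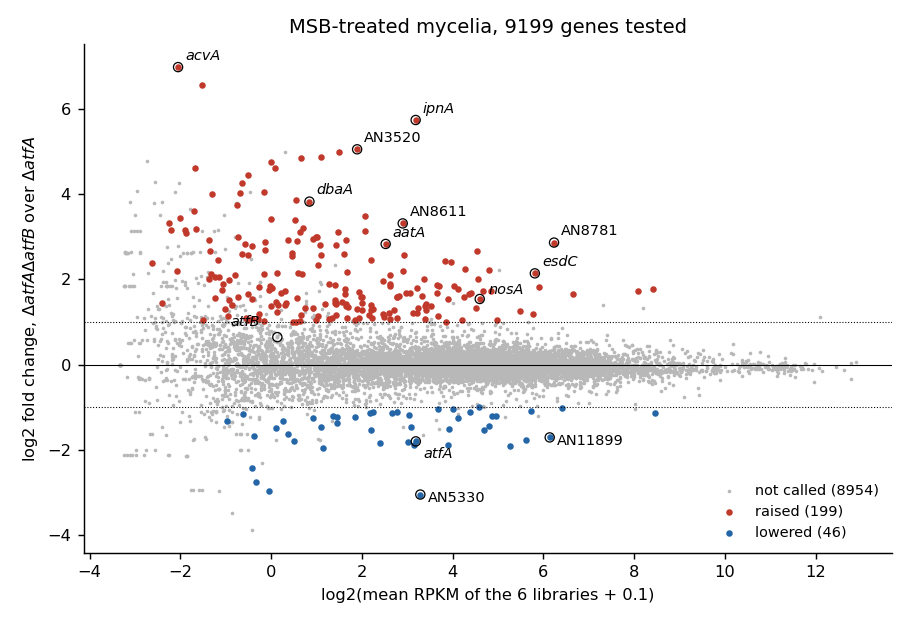
Each point is 1 of 9199 genes in MSB-treated mycelia, with the log2 of its mean RPKM over the 6 libraries (plus 0.1) on the horizontal axis and the log2 fold change of ΔatfAΔatfB over ΔatfA on the vertical axis. Red points are the 199 raised genes and blue points the 46 lowered genes, dotted lines mark log2 fold changes of 1 and −1, and circled genes are named in the text.

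The genes described next are the 12 most raised and the 12 most lowered of those called, with a mean of at least 10 RPKM in 1 of the groups and no overlap between groups. The separation is therefore fixed by the choice, and a raised gene could reach the minimum through Δ*atfA*Δ*atfB* alone. The raised genes were led by *ipnA* (AN2622), the isopenicillin N synthase described below. AN8611 came next, with 10.8, 20 and 9.59 RPKM in Δ*atfA*Δ*atfB* and 0.714, 1.42 and 1.73 RPKM in Δ*atfA* (log2 fold change 3.31 ± 0.52, adjusted p = 0.00032). AN8781 was the most abundant of the 12, at 71.6, 205 and 121 RPKM in Δ*atfA*Δ*atfB*, against 16.1, 18.1 and 20 RPKM in Δ*atfA* (2.86 ± 0.29). In both genes replicate 2 was the highest double-mutant library. AN4702 had 21.1, 55.7 and 42.5 RPKM in Δ*atfA*Δ*atfB* and 6.27, 6.86 and 5.65 RPKM in Δ*atfA* (2.66 ± 0.29). *esdC* (AN9121), a gene needed for early sexual development in *A. nidulans*, had 48.5, 136 and 90.4 RPKM in Δ*atfA*Δ*atfB*, against 21.4, 20.2 and 20.3 RPKM in Δ*atfA* (2.14 ± 0.25, adjusted p = 1.4e-05). Its 3 Δ*atfA* libraries were nearly equal, and the spread was within the double mutant. The other 7 had no name in the tables used here. They were AN6327 (2.58 ± 0.39), AN5458 (2.42 ± 0.30), AN3606 (2.40 ± 0.29), AN0964 (2.25 ± 0.40), AN4264 (2.21 ± 0.25), AN2646 (2.19 ± 0.19) and AN8539 (2.01 ± 0.27). AN8539 lies beside *mirB* (AN8540), a siderophore transporter gene chosen for mention after its values were seen. *mirB* had 55.9, 146 and 76.8 RPKM in Δ*atfA*Δ*atfB*, against 28.2, 23.9 and 26.3 RPKM in Δ*atfA* (1.82, adjusted p = 3.7e-05).

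The 12 most lowered genes were led by AN5330. It had 3.73, 1.78 and 0.847 RPKM in Δ*atfA*Δ*atfB*, against 10.9, 18.7 and 22.1 RPKM in Δ*atfA* (−3.05 ± 0.42, adjusted p = 8.4e-05). AN0401 had 27, 11.5 and 10.1 RPKM in Δ*atfA*Δ*atfB*, against 42.7, 68.8 and 71.1 RPKM in Δ*atfA* (−1.92 ± 0.30). Its neighbour AN0402 had 5.13, 7.59 and 6.38 RPKM in Δ*atfA*Δ*atfB*, against 16.3, 22.5 and 31.4 RPKM in Δ*atfA* (−1.90 ± 0.22). Replicate 1 was the nearest to the other group on both sides in AN5330 and AN0401, and over the 46 lowered genes Δ*atfA* replicate 1 was the lowest Δ*atfA* library in 31 and Δ*atfA*Δ*atfB* replicate 1 the highest double-mutant library in 26. AN11899 was the most abundant, at 29.4, 31 and 39.2 RPKM in Δ*atfA*Δ*atfB*, against 95.3 to 120 RPKM in the Δ*atfA* libraries (−1.71 ± 0.19, adjusted p = 7.3e-06). AN4795 had the smallest error of the group, with 6.87, 7.65 and 8.83 RPKM in Δ*atfA*Δ*atfB*, against 19.3, 23.2 and 24.1 RPKM in Δ*atfA* (−1.52 ± 0.14). The remaining genes of the 12 besides *atfA* were AN0656 (−1.90 ± 0.31), AN11864 (−1.81 ± 0.20), AN7011 (−1.78 ± 0.50), AN5053 (−1.54 ± 0.27), AN1621 (−1.46 ± 0.21) and AN2574 (−1.45 ± 0.29). AN7011 rested on Δ*atfA* replicate 3, which held 139 RPKM where the other Δ*atfA* libraries held 43.1 and 43.6. Without that library its log2 fold change was −0.98 (adjusted p = 0.246), and it was also lost without replicate 1 (0.0586) or replicate 2 (0.166) of Δ*atfA*Δ*atfB*.

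**Figure D2:**
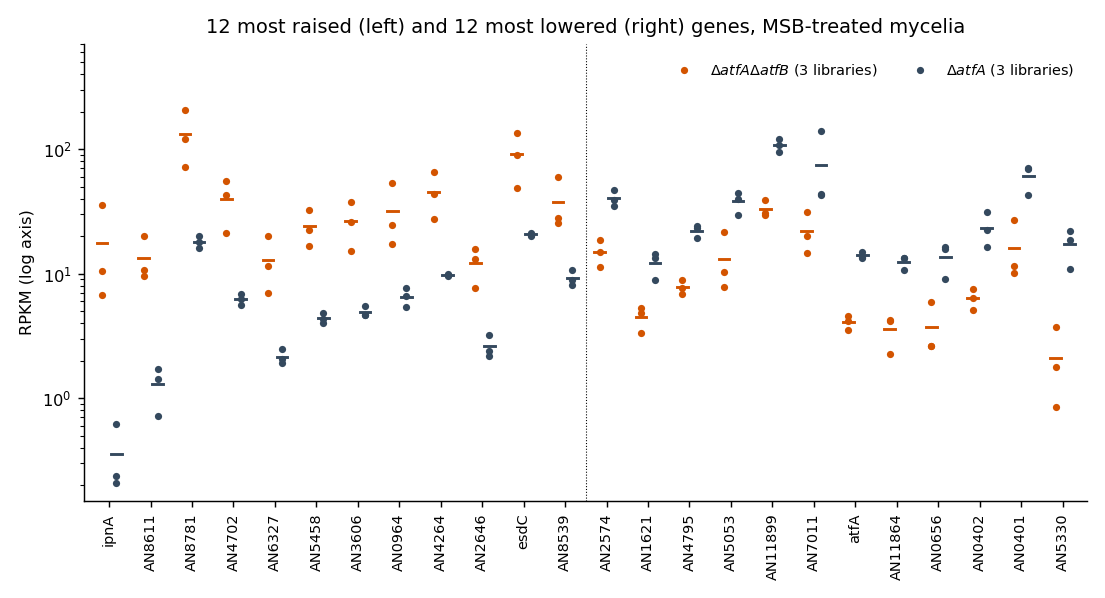
RPKM of each library on a log axis for the 12 most raised and the 12 most lowered genes with a mean of at least 10 RPKM in 1 of the groups and no overlap between groups, from the most raised at the left to the most lowered at the right. Orange points are the 3 ΔatfAΔatfB libraries and dark points the 3 ΔatfA libraries, with a bar at each mean. The groups stay apart within every gene because the genes were chosen for it, and the points of the double mutant spread more widely in most raised genes than those of ΔatfA.

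Secondary metabolite genes were described through the 67 clusters the study lists. These held 241 tested genes, of which 23 were raised and 1 lowered (median log2 fold change 0.15), where 2.16% and 0.5% of all genes tested were. Raised genes fell in 10 of the clusters and the lowered gene in 1. The lists were chosen with earlier results of these data in view, so their counts are a description.

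Penicillin biosynthesis stood highest, with 3 of 3 genes raised (median log2 fold change 5.74). *acvA* (AN2621) encodes the peptide synthetase that joins the 3 amino acid precursors, *ipnA* the enzyme that closes the ring system, and *aatA* (AN2623) the acyltransferase of the last step. *ipnA* had 6.77, 35.7 and 10.5 RPKM in Δ*atfA*Δ*atfB*, against 0.620, 0.236 and 0.208 RPKM in Δ*atfA* (5.74 ± 0.63, adjusted p = 7.2e-06). *aatA* had 6.56, 17 and 6.31 RPKM in Δ*atfA*Δ*atfB*, against 0.955, 1.41 and 1.70 RPKM in Δ*atfA* (2.83 ± 0.35, adjusted p = 2.1e-05). The first gene of the pathway was weak in both groups. *acvA* had 26, 126 and 50 reads in the Δ*atfA*Δ*atfB* libraries, against 1, 0 and 0 reads in the Δ*atfA* libraries. Scaled to library totals this is a ratio of 157, with a 95% counting interval of 27.8 to 6217 that covers counting error only. Replicate 2 was the highest double-mutant library in each of the 3 genes, and the groups stayed apart with or without it. The call of all 3 genes held under each of the 12 alternatives.

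The aspercryptin cluster around AN7884, its nonribosomal peptide synthetase gene, had 8 of 13 tested genes raised and none lowered (median 1.42). Levels were low. AN7884 had 0.118, 0.0966 and 0.108 RPKM in Δ*atfA*Δ*atfB*, against 0.0109, 0.0254 and 0.0224 RPKM in Δ*atfA* (2.37 ± 0.38, adjusted p = 0.00036). AN7876 had 2, 1.6 and 1.62 RPKM in Δ*atfA*Δ*atfB*, against 0.528, 0.491 and 0.542 RPKM in Δ*atfA* (1.72 ± 0.27). In both genes replicate 2 was below replicate 1 of the double mutant. The other raised genes with large fold changes were *CYP548C1* (AN7881), a cytochrome P450 gene with 32 reads over the Δ*atfA*Δ*atfB* libraries against 2 over the Δ*atfA* libraries, AN7880 (3.32 ± 0.55), AN11028 (2.83 ± 0.48) and AN7883. The spread was wider in some of these, as AN7880 had 0.271, 0.241 and 0.0909 RPKM in Δ*atfA*Δ*atfB*, against 0.0151, 0.0316 and 0.00931 RPKM in Δ*atfA*. The call of AN7883 rested on 14 reads in Δ*atfA*Δ*atfB* against 1 in Δ*atfA* and was lost under 10 of the alternatives, among them each omission of a library other than Δ*atfA* replicate 1. AN7874 (1.42) and AN7879 (1.10) were raised as well. The 5 tested members not called were AN7872, AN7873, AN7875, AN7877 and AN7878, with log2 fold changes between −0.03 and 0.61.

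In the emericellamide cluster 3 of 5 genes were raised (median 1.48), and the calls changed with single libraries. *easC* (AN2548), an acyltransferase gene, had 1.2, 6.87 and 1.67 RPKM in Δ*atfA*Δ*atfB*, against 1.02, 0.337 and 0.596 RPKM in Δ*atfA* (2.34 ± 0.55, adjusted p = 0.011). *easB* (AN2547), the polyketide synthase gene, had 0.860, 4.16 and 1.19 RPKM in Δ*atfA*Δ*atfB*, against 1.25, 0.349 and 0.541 RPKM in Δ*atfA* (1.57 ± 0.47, adjusted p = 0.046). *easD* (AN2549), an acyl-CoA ligase gene, had 3.94, 17.3 and 6.20 RPKM in Δ*atfA*Δ*atfB*, against 5.67, 2.75 and 2.90 RPKM in Δ*atfA* (1.29 ± 0.37, adjusted p = 0.033). Replicate 2 of the double mutant was high in all 3 genes, and the groups overlapped in *easB* and *easD*. Without that library the log2 fold changes were 1.21, 0.57 and 0.45 in *easC*, *easB* and *easD*, with adjusted p of 0.0779, 0.519 and 0.425, and none was called. Leaving out Δ*atfA* replicate 2 also ended the calls in *easC* (0.083), *easB* (0.237) and *easD* (0.18). With the replicate number as a block, *easB* (0.0674) and *easD* (0.0525) were not called and *easC* was.

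Other clusters held 1 or 2 raised genes each. In the microperfuranone cluster the raised genes were AN3395 (2.78) and *CYP620D1* (AN3394), a cytochrome P450 gene with 0.545, 1.45 and 0.753 RPKM in Δ*atfA*Δ*atfB*, against 0.0429, 0.120 and 0.0264 RPKM in Δ*atfA* (3.75, adjusted p = 0.00011). The synthetase gene of that cluster, *micA* (AN3396), had a log2 fold change of 0.67 and was not called (adjusted p = 0.23). In the cluster of AN2924, AN2923 had 1.54, 6.09 and 1.93 RPKM in Δ*atfA*Δ*atfB*, against 0.326, 0.227 and 0.602 RPKM in Δ*atfA* (2.94 ± 0.49). AN2922 was also raised there (1.75 ± 0.52, adjusted p = 0.042), but not without replicate 2 of Δ*atfA*Δ*atfB* (0.88, adjusted p = 0.356) or without any 1 of the Δ*atfA* libraries (adjusted p 0.0708 to 0.198). *dbaA* (AN7896), the transcription factor gene of the cluster named for a benzaldehyde derivative, had 1.96, 5.27 and 2.29 RPKM in Δ*atfA*Δ*atfB*, against 0.248, 0.173 and 0.240 RPKM in Δ*atfA* (3.82 ± 0.43, adjusted p = 8e-06). AN7895, a neighbour 1 gene away that was chosen after its values were seen, had a log2 fold change of 4.99. In the sterigmatocystin cluster 1 of 7 tested genes was raised, AN7817 (2.01). Single raised genes were also found in the *inp* (AN3491), AN3612 (AN3606) and asperlin (AN9219) clusters. The lowered cluster gene was AN0656, in a group without a polyketide or peptide synthetase.

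**Figure D3:**
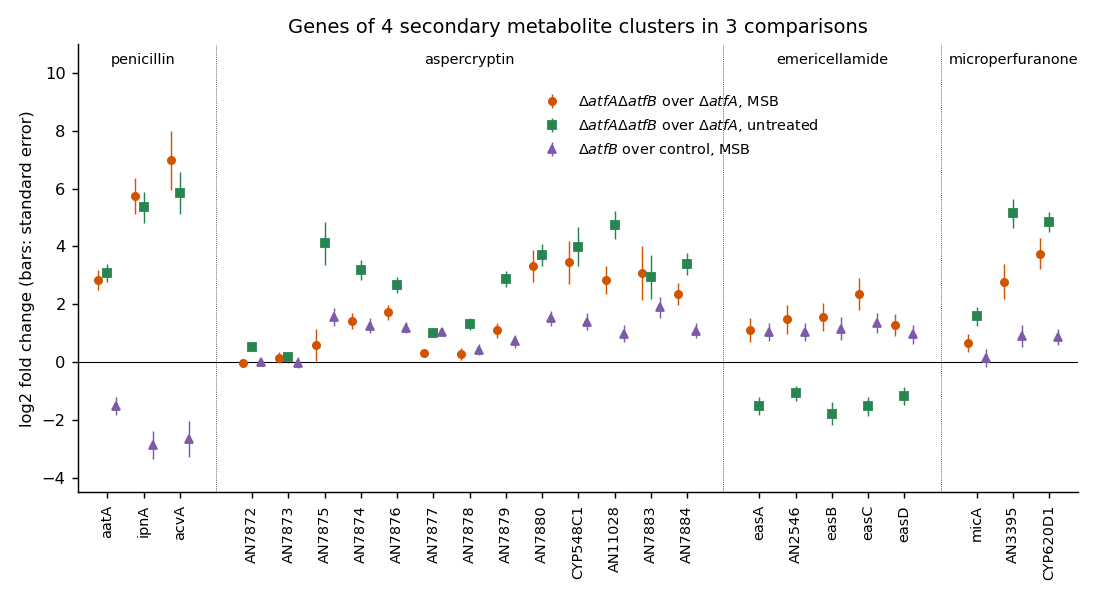
Log2 fold changes with standard errors for the tested genes of 4 secondary metabolite clusters. Orange circles compare ΔatfAΔatfB with ΔatfA on MSB, green squares compare the same strains untreated, and purple triangles compare mycelia labelled ΔatfB with the control on MSB. The 3 penicillin genes lie above 2.8 in both comparisons of the double mutant and below −1.5 in mycelia labelled ΔatfB, and the emericellamide genes are positive on MSB and negative untreated.

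Of 9 tested regulators of sexual development and the velvet complex, 2 were raised and none lowered (median 0.31), where 2.16% of all genes tested were raised. At an unadjusted p under 0.05, 6 of the 9 were higher and 1 lower in Δ*atfA*Δ*atfB*, where 1106 of all 9199 genes tested were higher and 952 lower. *nosA* (AN1848), which encodes a zinc cluster activator of sexual development, had 27.4, 49.5 and 31 RPKM in Δ*atfA*Δ*atfB*, against 10.5, 13.6 and 12.7 RPKM in Δ*atfA* (1.54 ± 0.22, adjusted p = 8.8e-05). *rosA* (AN5170), its relative and a repressor of sexual development, had 2.69, 4.81 and 3.39 RPKM in Δ*atfA*Δ*atfB*, against 1.5, 1.82 and 1.47 RPKM in Δ*atfA* (1.17 ± 0.32, adjusted p = 0.029). The groups stayed apart in both genes. The call of *nosA* held when any library was left out, while that of *rosA* was lost without any 1 of the Δ*atfA* libraries (0.0669 to 0.0937) or without replicate 2 (0.183) or replicate 3 (0.0562) of the double mutant. The velvet genes *veA* (AN1052) and *velB* (AN0363) had log2 fold changes of 0.27 and −0.24, and *laeA* (AN0807), the global regulator of secondary metabolism, had 0.35 (adjusted p = 0.021, below the fold limit).

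Of 12 regulators of asexual development 1 was raised, where 2.16% of all genes tested were. A single call in a list this short, here and in the lists below, was not tested against that share. *abaA* (AN0422), which acts in the spore-forming cells of the conidiophore, had 7.79, 8.06 and 6.72 RPKM in Δ*atfA*Δ*atfB*, against 4.16, 2.86 and 2.93 RPKM in Δ*atfA* (1.18 ± 0.20, adjusted p = 0.00052). *brlA* (AN0973), the regulator above it, had a log2 fold change of 1.16 that was not called (adjusted p = 0.3). Markers of conidiophores and spores, 17 of them tested, held *abaA* as the single raised gene and no lowered gene (median 0.13). Summed over the list, their level was 76.2 to 76.9 RPKM in Δ*atfA*Δ*atfB* and 67.6 to 67.9 RPKM in Δ*atfA*, with 1 marker at 0 in each group, where MSB-treated control mycelia held 214 to 562 RPKM. The part of this difference in the raised genes was not tested. Of 4 tested hydrolases known from autolysing or starved cultures, 1 was raised. This gene, AN5558, was named after its values were seen and had 15.5, 53.4 and 24.2 RPKM in Δ*atfA*Δ*atfB*, against 9.87, 9.73 and 9.83 RPKM in Δ*atfA* (1.65, adjusted p = 0.0042). The summed level of these hydrolases was 90.9 to 126 RPKM in Δ*atfA*Δ*atfB*, highest in replicate 2, and 82.3 to 92.3 RPKM in Δ*atfA*.

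Carbohydrate-active enzymes gave 14 raised and 2 lowered of 291 tested genes (median 0.11). Over all genes 2.16% were raised. In the fit of 6 libraries 5 of the enzymes were raised, and 8 without Δ*atfA*Δ*atfB* replicate 2 and 7 without Δ*atfA* replicate 2. The most abundant of the 6 named by fold change was AN9069, with 13.3, 28 and 17.4 RPKM in Δ*atfA*Δ*atfB*, against 6.20, 5.91 and 3.99 RPKM in Δ*atfA* (1.86 ± 0.26, adjusted p = 9.9e-05). AN0549 and AN0550 lie side by side and were raised by 2.99 ± 0.49 and 2.11 ± 0.29 with at most 0.180 and 0.225 RPKM in a Δ*atfA* library. AN7891 was raised on 46 reads in Δ*atfA*Δ*atfB* against 2 in Δ*atfA*. AN7598 was lowered, at 0.115, 0.133 and 0.351 RPKM in Δ*atfA*Δ*atfB*, against 0.8, 0.906 and 1.6 RPKM in Δ*atfA* (−2.42 ± 0.46, adjusted p = 0.0019). Among list members with a gene name, which were picked after their values were seen, the α-glucosidase gene *agdB* (AN8953) had 10.1, 52.2 and 18.7 RPKM in Δ*atfA*Δ*atfB*, against 9.15, 6.90 and 7.37 RPKM in Δ*atfA* (1.78). In *agdB* replicate 2 stood well above the other double-mutant libraries. The chitinase gene *chiA1* (AN8241) had 3.29, 4.72 and 3.33 RPKM in Δ*atfA*Δ*atfB*, against 1.89, 1.05 and 1.36 RPKM in Δ*atfA* (1.41). *gtb3* (AN2955, 1.07) and its neighbour *agd3* (AN2954, 1.36) were both raised. Their namesakes in *A. fumigatus* act in the synthesis of the exopolysaccharide galactosaminogalactan.

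Of 326 transcription factor genes tested 4 were raised and 3 lowered (median −0.01), with the *atfA* locus among the 3. Over all genes tested 2.16% were raised and 0.5% lowered. Besides *dbaA*, *nosA* and *rosA*, the raised gene was AN9141 (1.14). The lowered genes besides the *atfA* locus were AN8426, at 0.381, 0.350 and 0.232 RPKM in Δ*atfA*Δ*atfB* and 1.06, 1.24 and 0.772 RPKM in Δ*atfA* (−1.68 ± 0.30), and AN9373, at 0.727, 0.607 and 0.545 RPKM in Δ*atfA*Δ*atfB* and 1.77, 1.48 and 1.48 RPKM in Δ*atfA* (−1.33 ± 0.19). The 14 other bZIP genes held no call (median −0.03). Among them *hapX* (AN8251), the iron-responsive regulator, stood at 0.69 (adjusted p = 0.041) and *napA* (AN7513), the oxidative stress regulator, at −0.38 (adjusted p = 0.069).

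Besides the menadione-induced genes, the stress gene lists held no call between the mutants on MSB. With 2.66% called over all genes tested, 0 calls in lists this short lie near the background. No member was called among 11 genes of the HOG pathway (median −0.01), 36 antioxidative enzymes (−0.10), 6 trehalose genes (−0.04), 11 glycerol and mannitol genes (0.0042), 18 light genes (−0.07), 7 nitrate assimilation genes (−0.18) and 9 chitin and glucan synthesis genes (0.04). At an unadjusted p under 0.05 the antioxidative enzymes held 2 genes higher and 6 lower in Δ*atfA*Δ*atfB*, and the HOG genes 1 higher and 0 lower, where all genes tested held 1106 higher and 952 lower. The 6 heat shock genes tested had a median of −0.44 with no call. *hsp70* (AN5129), a chaperone gene, had 262, 140 and 111 RPKM in Δ*atfA*Δ*atfB*, against 349, 486 and 213 RPKM in Δ*atfA* (−1.04 ± 0.36, adjusted p = 0.085). It was called lowered without replicate 1 of the double mutant (−1.49, adjusted p = 0.0155) or replicate 3 of Δ*atfA* (−1.29, adjusted p = 0.0438), and with the replicate block (adjusted p = 0.0457).

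Genes listed for their induction by menadione were high in both mutants. AN5368 had 313, 301 and 383 RPKM in Δ*atfA*Δ*atfB* and 270, 299 and 412 RPKM in Δ*atfA* (0.01 ± 0.26). AN5354 had 45.4, 39 and 46.6 RPKM in Δ*atfA*Δ*atfB* and 39.4, 38.7 and 47.3 RPKM in Δ*atfA* (0.05 ± 0.19). The 2 groups overlapped in both genes. AN5355 was raised, with 47.8, 67.8 and 114 RPKM in Δ*atfA*Δ*atfB*, against 27.3, 26.7 and 45 RPKM in Δ*atfA* (1.19 ± 0.30, adjusted p = 0.016), and the call was lost without replicate 3 of the double mutant (0.80, adjusted p = 0.13) or replicate 1 (0.0555) or 2 (0.101) of Δ*atfA*. Untreated mycelia of both strains held at most 0.191 RPKM of AN5355.

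**Figure D4:**
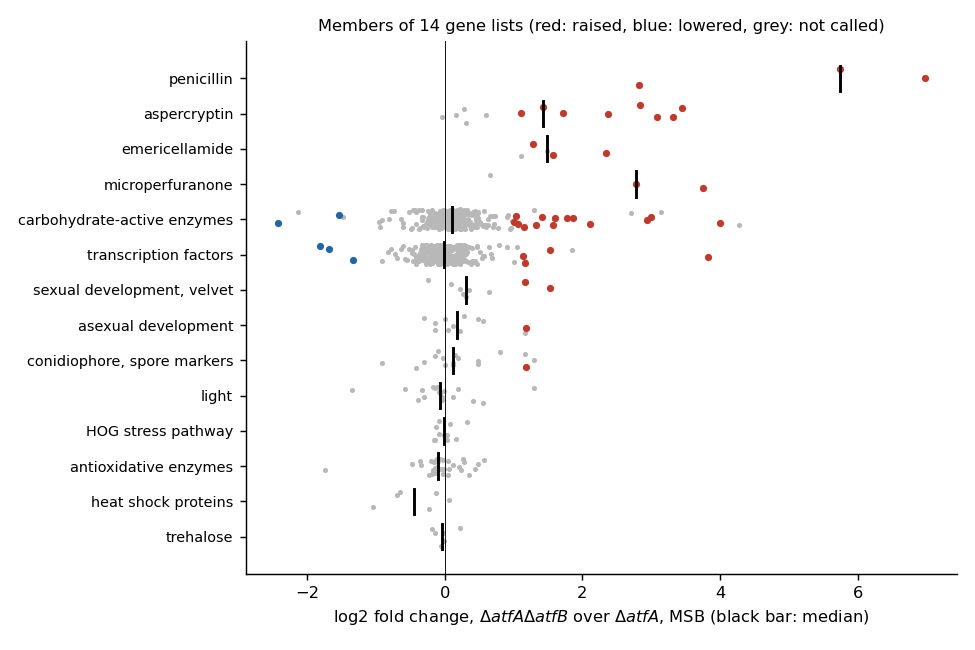
Log2 fold change of ΔatfAΔatfB over ΔatfA on MSB for the tested members of 14 gene lists, 1 point per gene, with raised genes in red, lowered genes in blue, genes not called in grey and a black bar at each list's median. Penicillin and microperfuranone genes lie furthest to the right, with medians of 5.74 and 2.78, and the HOG, antioxidative and trehalose lists are centred near 0.

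A few other named genes among the 245 were picked after their values were seen. The peptidase genes *dppV* (AN2572) and *dppIV* (AN6438) were raised. *dppV* had 3.45, 13.2 and 5.35 RPKM in Δ*atfA*Δ*atfB*, against 1.18, 0.799 and 0.573 RPKM in Δ*atfA* (3.14, adjusted p = 0.00018), and *dppIV* was raised by 1.58 (adjusted p = 0.0012). *gliT* (AN3963), named after the gliotoxin oxidoreductase of *A. fumigatus*, had 0.395, 0.817 and 1.58 RPKM in Δ*atfA*Δ*atfB*, against 0.137, 0.0955 and 0.211 RPKM in Δ*atfA* (2.59). *gprD* (AN3387), a G protein-coupled receptor gene, was lowered, at 0.641, 1.05 and 0.901 RPKM in Δ*atfA*Δ*atfB*, against 3.96, 3.13 and 2.99 RPKM in Δ*atfA* (−1.96). *prnD* (AN1731), the proline oxidase gene, was lowered by 1.78 on the log2 scale (log2 fold change −1.78, adjusted p = 0.033).

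Some raised genes lay in runs along the chromosomes. Of 183 raised genes with a place in the RefSeq order, 35 fell in 9 stretches of at least 3 raised genes with no more than 1 other gene between neighbours, and none of the 44 placed lowered genes did. The stretches were found after the values were seen and are a description. Besides the penicillin (AN2623 to AN2621), aspercryptin (AN7879 to AN7884) and emericellamide (AN2547 to AN2549) genes, they included AN3520 to AN3517, 4 genes with log2 fold changes of 2.55 to 5.05. AN3520 itself had 3.77, 12.4 and 4.91 RPKM in Δ*atfA*Δ*atfB*, against 0.278, 0.194 and 0.172 RPKM in Δ*atfA* (5.05 ± 0.50, adjusted p = 2.7e-06). A nearby stretch from AN3530 to AN3524 held 4 raised genes at 1.30 to 2.12. The stretch AN0011 to AN0009 held 3 at 3.48 to 4.04, of which AN0010 had 3.54, 10.8 and 8.47 RPKM in Δ*atfA*Δ*atfB*, against 0.273, 0.762 and 0.876 RPKM in Δ*atfA*. Between AN10399 and AN3344, 6 genes were raised by 1.05 to 4.83, and *rosA* closed a stretch of 3 that began at AN5168. The last stretch, AN0550 to AN0548, held the enzyme genes AN0549 and AN0550.

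The same strains without MSB share no library with the treated ones and show which differences recur. There 380 genes were raised (4.13%) and 239 lowered (2.6%) in Δ*atfA*Δ*atfB*, or 619 in either direction (6.73%). Raised in both were 100 genes, 50.3% of the 199 raised on MSB and 26.3% of the 380 raised untreated. Lowered in both were 21 genes, 45.7% of the 46 and 8.79% of the 239. In the opposite direction untreated were 10 of the raised and 2 of the lowered genes. The penicillin genes recurred, with *ipnA* at 23.9, 30.9 and 31 RPKM in untreated Δ*atfA*Δ*atfB* mycelia, against 0.688, 0.670 and 0.780 RPKM in untreated Δ*atfA* mycelia (5.35, adjusted p = 2.9e-07). *dbaA* (4.87), AN3520 (3.66), *nosA* (1.21), *esdC* (1.16) and 11 of 13 aspercryptin genes were raised untreated too. The test of the difference between the treated and the untreated effect did not call *ipnA* (0.39, adjusted p = 0.82), *dbaA* (−1.05, adjusted p = 0.3), AN3520 (1.39, adjusted p = 0.18), *nosA* (0.32, adjusted p = 0.5) or *esdC* (0.98, adjusted p = 0.058).

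That test called 275 genes with a more positive effect on MSB (2.99%) and 234 with a more negative one (2.54%), or 509 (5.53%). An effect here is the difference between libraries labelled Δ*atfA*Δ*atfB* and those labelled Δ*atfA*. Of the 199 genes raised on MSB, 66 had a more positive effect than untreated and 11 a more negative one. The emericellamide genes changed direction, with the limits on their MSB calls given above. *easC* had 60.8, 40.9 and 56.3 RPKM in untreated Δ*atfA*Δ*atfB*, against 113, 152 and 201 RPKM in untreated Δ*atfA* (−1.52, adjusted p = 0.0017), all 5 genes of the cluster were lowered untreated, and the difference between the effects was 3.87 in *easC* (adjusted p = 0.00035). AN8611 was raised on MSB and not called untreated (−1.13, adjusted p = 0.053). It had 14.6, 8.54 and 10 RPKM in untreated Δ*atfA*Δ*atfB* and 14.5, 21.1 and 38.8 RPKM in untreated Δ*atfA*, so these groups overlapped. The difference between the effects was 4.44 in AN8611 (adjusted p = 0.00017). Of the 46 lowered genes, 8 had a more positive effect on MSB than untreated and 10 a more negative one. These counts share the 6 libraries with the calls themselves. AN11864 was lowered far more without MSB, to 0.936, 1.19 and 0.803 RPKM in Δ*atfA*Δ*atfB*, against 23.8, 28.1 and 32.2 RPKM in Δ*atfA* (−4.78). AN4795 (−3.54 untreated) and AN11899 (−2.97) were also further down untreated. For AN2574 (−2.53 untreated) the difference between the effects was not called (1.08, adjusted p = 0.074). AN1621 was lowered on MSB and stood at 0.14 untreated (difference −1.60, adjusted p = 0.00074). In the *pkf* cluster of polyketide genes none of 6 genes was called on MSB and all 6 were lowered untreated. Its *pkfE* (AN3228) had 0.139, 0.425 and 0.361 RPKM in Δ*atfA*Δ*atfB* and 0.4, 0.502 and 0.247 RPKM in Δ*atfA* on MSB. Untreated it had 0.593, 0.197 and 0.275 RPKM in Δ*atfA*Δ*atfB*, against 5.97, 14.7 and 22.7 RPKM in Δ*atfA*.

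**Figure D5:**
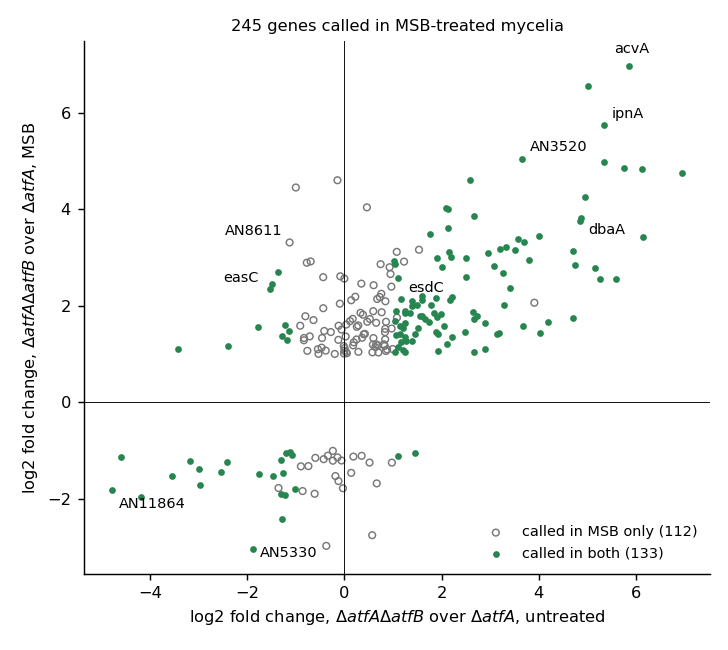
Log2 fold change of ΔatfAΔatfB over ΔatfA in untreated mycelia (horizontal) against that in MSB-treated mycelia (vertical) for the 245 genes called on MSB. Filled green points are the 133 genes called in both comparisons and open points those called on MSB only, and 12 of the filled points, among them easC, lie in the quadrants where the directions differ.

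The loss of *atfB* in the presence of *atfA* was to be read from MSB-treated mycelia labelled Δ*atfB* against the control, which again share no library with the 6. That label was contradicted in the conidia. Untreated conidia labelled Δ*atfB* held 241, 216 and 314 RPKM of *atfB*, against 253, 307 and 362 RPKM in the control. MSB-treated conidia with that label held 131, 188 and 257 RPKM, against 253, 246 and 300.1 RPKM in the control. In mycelia *atfB* was lower under the label, at 0.666, 0.860 and 0.787 RPKM untreated, against 3.52, 3.58 and 2.72 RPKM in the control. On MSB it had 1.23, 0.496 and 0.743 RPKM in mycelia labelled Δ*atfB*, against 1.37, 1.54 and 1.46 RPKM in the control (−0.87, adjusted p = 0.026, below the fold limit). Libraries with this label also differed from the others in AN6798. MSB-treated mycelia labelled Δ*atfB* had 0.234, 0.0945 and 0.274 RPKM of it, against 57.1, 52.2 and 53.3 RPKM in the control, while Δ*atfA*Δ*atfB* had 59.8, 65.6 and 62.3 RPKM and Δ*atfA* 61.9, 67.6 and 64.7 RPKM. What follows therefore compares libraries by this label. In this comparison 197 genes were raised (2.14%) and 84 lowered (0.913%), or 281 (3.05%). Raised in both backgrounds were 36 genes, 18.1% of the 199 and 18.3% of the 197, and lowered in both were 8 genes, 17.4% of the 46 and 9.52% of the 84. Raised in Δ*atfA*Δ*atfB* over Δ*atfA* but lowered in mycelia labelled Δ*atfB* were 7 genes, among them the 3 penicillin genes. In mycelia labelled Δ*atfB*, 8 of 13 tested aspercryptin genes (median 1.09) and 4 of 5 emericellamide genes (median 1.05) were raised. None of either cluster was lowered there.

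*ipnA* had 2.56, 3.19 and 1.5 RPKM in mycelia labelled Δ*atfB*, against 11.6, 24.7 and 14.2 RPKM in the control (−2.86, adjusted p = 0.00039). *aatA* had 2.50, 3.53 and 3.12 RPKM in mycelia labelled Δ*atfB*, against 6.54, 11.7 and 7.42 RPKM in the control (−1.52, adjusted p = 0.0024). Both directions were thus opposite to those in the Δ*atfA* background, and the test of the difference between backgrounds gave 8.60 for *ipnA* and 4.35 for *aatA* (adjusted p = 2.8e-06 and 1e-05). *acvA* was called in the same direction (adjusted p = 4.8e-05), but the size of its difference is uncertain because Δ*atfA* held 1, 0 and 0 reads. Over all genes that test called 212 with a more positive effect without *atfA* (2.3%) and 144 with a more negative one (1.57%), or 356 (3.87%). Of the 199 genes raised on MSB, 102 were among the first and none among the second, and of the 46 lowered genes 22 were among the second and none among the first. These counts share the 6 libraries with the calls themselves and cannot support them. Among the rest were *hsp70*, at 530, 564 and 548 RPKM in mycelia labelled Δ*atfB* and 115, 185 and 72.0 RPKM in the control (2.11, adjusted p = 0.0007), with a difference between backgrounds of −3.15 (adjusted p = 0.00064), and AN2646, at 26.4, 26.4 and 27.6 RPKM in mycelia labelled Δ*atfB* and 28.8, 26.1 and 30.7 RPKM in the control (−0.13, adjusted p = 0.62), with a difference of 2.32 (adjusted p = 1e-05).

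Set beside the MSB-treated control, which is a comparison that shares the mutant libraries, several raised genes were closer to the control in Δ*atfA*Δ*atfB* than in Δ*atfA*. The genes named were chosen by their difference between the mutants, which favours low Δ*atfA* values in raised genes. Their values are therefore a description. Against that control, 143 genes were raised (1.55%) and 291 lowered (3.16%) in Δ*atfA*Δ*atfB*, or 434 (4.72%). In Δ*atfA*, 255 were raised (2.77%) and 556 lowered (6.04%), or 811 (8.82%). For *ipnA* the log2 fold change was 0.05 in Δ*atfA*Δ*atfB* over the control (adjusted p = 0.95) and −5.68 in Δ*atfA* over the control (adjusted p = 9.1e-07). For AN8781 these were −0.53 (adjusted p = 0.16) and −3.39 (adjusted p = 3.9e-08), for *esdC* −0.64 and −2.78, and for *nosA* −0.42 and −1.95. AN8611 stood at 0.54 and −2.77. Some raised genes stayed below the control in the double mutant, as AN2646 did at −1.25 and −3.44 and *easC* at −1.92 and −4.26. The lowered genes were mixed. AN11864 stood at 0.84 in Δ*atfA*Δ*atfB* and 2.65 in Δ*atfA*, AN4795 at 0.80 and 2.32, AN5330 at −1.48 and 1.57, and AN1621 at −1.53 and −0.07.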

How the data were processed

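Of the sequenced mycelia and conidia, the 24 mycelial libraries (12974631 to 36314359 counts each) entered the fit. By the methods and the labels, the authors checked reads with FastQC, aligned them with HISAT2 2.1.0, and deposited 1 table of 10988 genes with a read count and an RPKM value per gene and library. The tool and annotation used for counting and any use of strand are not given in the sources used here, so reads of overlapping, antisense or near-identical genes may be divided between them. The authors made RPKM from the counts, gene lengths and library totals with edgeR, and here RPKM was computed from the deposited counts in the same way. It differed by a relative 5.2e-15 at most from the deposited RPKM of 42 libraries. The 6 further RPKM columns, those of the Δ*atfA*Δ*atfB* mycelia, were not used. The check given here therefore leaves out the double-mutant side of the comparison. The authors used DESeq2 1.24.0 for their own comparisons, whose results are not used here.

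The 9199 genes that reached 0.5 RPKM in 3 or more mycelial libraries were tested with edgeR 4.0.16 (R 4.3.3), relative log expression factors and a quasi-likelihood F test with 1 mean per strain and treatment. P-values were adjusted by the Benjamini-Hochberg method over all genes tested. Interactions were contrasts of the same model. The alternatives were TMM factors, DESeq2 1.42.0, no filter, fits of 6 or 12 libraries, a replicate block and leaving out each library. Tested on simulated counts of 9199 genes for this comparison, the fit called 97 of 100 genes changed by a log2 fold of 1.5 and 100 of 100 changed by 3, with 3 false calls. The simulation changed only genes above a minimum mean count and gave each gene 1 spread across all libraries. It therefore does not cover genes with few reads or a library that departs from its group.

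The libraries, gene lists and tests were chosen with earlier results of these data known. Named are the deleted genes with 5 neighbours on each side, the 12 most raised and 12 most lowered called genes that had a mean of at least 10 RPKM in 1 of the groups and no overlap, up to 6 called members of each list with at least 3 calls, called members of the development and stress lists, the marker and menadione lists, and the 5 genes furthest each way in each interaction. Genes outside this rule that were picked by their values are marked where they appear. Other list members outside it are given without a mark. Among these are *brlA*, *velB*, *laeA*, *hapX*, *napA*, AN9141, AN7874, AN7879, AN7817, AN3491, AN9219 and the microperfuranone genes. Names come from the study's supplementary tables and from the RefSeq table of assembly ASM1142v1, used for names and gene order, in which 10032 of the IDs were found. AN6849 is given by its ID because the table's symbol for it conflicts with that of *atfB*. Its level was 2.49, 2.31 and 1.90 RPKM in Δ*atfA*Δ*atfB* and 2.39, 3.63 and 2.53 RPKM in Δ*atfA*.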

Additional observations from a re-analysis of the deposited data

Results flagged for a closer look

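The difference between mycelia labelled Δ*atfA*Δ*atfB* and Δ*atfA* was not the same with and without MSB, by a test of the difference itself, in 275 genes with a more positive and 234 with a more negative effect on MSB. The values that follow are log2 differences, the effect on MSB minus the effect untreated. The largest positive ones among named genes were in AN2844 (5.15), *pkfF* (AN3229, 5.04), *pkfE* (AN3228, 5.03), AN8928 (4.73) and AN8611 (4.44). AN2844 had 6.99, 14.7 and 9.43 RPKM in Δ*atfA*Δ*atfB* and 17.1, 13.7 and 17.5 RPKM in Δ*atfA* on MSB. Untreated it had 2.98, 2.27 and 2.63 RPKM in Δ*atfA*Δ*atfB*, against 111, 139 and 199 RPKM in Δ*atfA*, so its difference lay in the untreated mycelia. The emericellamide genes *easC* (3.87), *easB* (3.35) and *easD* (2.47) were raised on MSB and lowered untreated, but their calls on MSB were lost without replicate 2 of Δ*atfA*Δ*atfB*, without replicate 2 of Δ*atfA*, and in the fits of 6 or 12 libraries. Also positive were AN11864 (2.97), AN8781 (2.12), AN4795 (2.02), *atfB* (1.90, against the label on MSB), AN5458 (1.82), AN4702 (1.71), AN3606 (1.43), AN11899 (1.26) and AN2912 (1.02), the last of which lies beside the deleted *atfA* locus. Negative differences were found in AN2922 (−2.96), AN4583 (−2.96), AN7792 (−2.90), AN5659 (−2.80), AN4324 (−2.56), AN8426 (−2.35), AN5975 (−2.09), *hsp70* (AN5129, −1.84), AN1621 (−1.60) and *pyroA* (AN7725, −1.01). AN7792 had 50.7, 42.3 and 39.4 RPKM in Δ*atfA*Δ*atfB* and 52.9, 60.5 and 41.1 RPKM in Δ*atfA* on MSB. Untreated it had 46.2, 48.2 and 41.3 RPKM in Δ*atfA*Δ*atfB*, against 9.45, 6.62 and 5.59 RPKM in Δ*atfA*.

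The difference on MSB also differed from that between mycelia labelled Δ*atfB* and the control, a label that the *atfB* level in conidia contradicts, in 212 genes with a more positive and 144 with a more negative effect without *atfA*. The values here are the effect in the Δ*atfA* background minus that of the Δ*atfB* label over the control. Positive differences were found in *acvA* (9.63), *ipnA* (8.60), AN6798 (7.98), the mitochondrial ribosomal RNA gene *S-rRNA* (AN20048, 5.62), AN3239 (5.56), AN3520 (5.28), *aatA* (4.35), AN0549 (3.58), *dbaA* (3.37) and AN2923 (2.97). The size for *acvA* is uncertain, since it rests on 1, 0 and 0 reads in Δ*atfA*. AN6798 was nearly absent from mycelia labelled Δ*atfB*. *S-rRNA* had 18.5, 20.7 and 47.7 RPKM in mycelia labelled Δ*atfB* and 37.3, 29.4 and 1501 RPKM in the control, so that 1 control library stood far above the others. AN3239 varied within groups, with 45.7, 24.9 and 91.7 RPKM in Δ*atfA*Δ*atfB* and 3.16, 2.32 and 28.1 RPKM in Δ*atfA*. Smaller positive differences were found in AN0550 (2.55), AN4702 (2.36), AN2646 (2.32), AN6327 (2.31), AN3606 (2.21), AN8781 (2.19), AN5355 (2.18), AN2922 (2.12), AN5458 (2.08), AN8611 (2.03), AN11028 (1.85), AN8539 (1.78), AN4264 (1.73), *esdC* (1.61), *abaA* (1.54), *atfB* (1.52) and AN9069 (1.43). Negative differences were found in *pkfE* (−3.82), AN8928 (−3.60), *hsp70* (−3.15), AN5975 (−2.94), AN2669 (−2.88), AN5937 (−2.37), AN12102 (−2.25), AN9373 (−2.21), AN5330 (−2.20), AN8426 (−2.18), AN4795 (−1.95), *atfA* (−1.93), AN4583 (−1.56), AN11864 (−1.41) and AN2574 (−1.33).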

How the results depend on the processing

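The small number of libraries, 3 in each group, limits the precision of every value here. A fit of the 6 libraries by themselves called 104 genes raised and 26 lowered where 199 and 46 were called in the fit of 24. In that fit the raised genes numbered 5 in the aspercryptin cluster, 0 in the emericellamide cluster and 5 among the carbohydrate-active enzymes. Among the 12 MSB-treated libraries the emericellamide cluster held 0 raised genes. Leaving out 1 library at a time gave 123 to 242 raised and 32 to 90 lowered genes. It gave 0 to 5 raised genes in the emericellamide cluster, 7 to 16 among the enzymes, and 2 to 5 raised and 3 to 5 lowered among transcription factors. The genes with a more negative effect without *atfA* numbered 116 to 221. Other counts stayed within 1.5 times their value, among them those by TMM scaling (199 raised, 46 lowered), DESeq2 (215 and 47) and no filter beyond 1 count (199 and 48). The median of all genes moved by 0.0016 with TMM and 0.0001 with DESeq2. Of 50 called genes that the naming rule covers, 37 kept their call under each alternative and none turned its direction. No sign was seen that the replicate numbers pair the libraries, though 3 libraries in each group are too few to exclude it. Deviations of same-numbered libraries correlated at −0.214, −0.076 and 0.0239, and 1 of 3 double-mutant libraries correlated best with its own number. With the replicate block 188 genes were raised and 47 lowered, and the emericellamide cluster held 1 raised gene.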
